A study of Rattus norvegicus with 18 samples.

Results

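The genes described here are 38 receptors, bridging proteins, exposure signals and engulfment and lipid-handling genes of efferocytosis, measured by RNA-seq in rat brain. They were taken from a list of symbols, chosen with earlier results of these data known. The symbols were matched to the gene names of the deposited count table without regard to case, and no measured value entered the match. Of the 38 symbols, 37 matched 1 row each among the 34873 genes of the table, and 33 of these had enough counts to be tested. Dock1, the exchange factor that works with ELMO1 on RAC1, matched no row. The rows LOC100909609 and AABR07005921.1, a lincRNA, have descriptions that refer to mouse DOCK1. They were picked out after values had been seen and were not counted among the 38. LOC100909609 held 41.2 ± 7.62 CPM (counts scaled to the size of the library; SD, n = 6) in NC, 36.1 ± 6.62 in CO and 39.4 ± 8.71 in CLCF1, and passed no test. AABR07005921.1 had 0 counts in NC, 0 in CO and 34 in CLCF1, too few to be tested. Without the filter on low counts edgeR called it higher in CLCF1 than in CO (adjusted p = 0.0122) and NC (adjusted p = 0.0137). These calls rest on few counts. CLCF1 library 1 held 0 and library 2 held 11, so within libraries 1 and 2 every count came from library 2.

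Efferocytosis is the uptake of dying cells by phagocytes. Dying cells release find-me signals and expose phosphatidylserine and calreticulin, receptors of the phagocyte bind these directly or through bridging proteins, and adaptor proteins pass the signal to the GTPase RAC1, which drives engulfment. The cargo's cholesterol then activates the nuclear receptors LXR and PPAR, which turn on efflux transporters. In brain the work is shared by microglia, border macrophages and astrocytes, and the receptors MERTK, AXL and MEGF10 are known for it.

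The series asked how CLCF1, a cytokine of the interleukin-6 family, and NF-κB signalling bear on macrophage efferocytosis after carbon monoxide poisoning. There were 18 libraries, 6 in each of 3 groups. NC was labelled wild type with no treatment. CO was labelled wild type and inhaled carbon monoxide. CLCF1 was labelled as a CLCF1 knock-down and also inhaled carbon monoxide, so that gas exposure was common to CO and CLCF1. By the series' design text the gas was given at 1000 ppm for 40 minutes and then at 3000 ppm for 20 minutes, and a carboxyhaemoglobin above 60% marked a poisoned rat. The same text describes lentiviral knock-down in bone-marrow-derived macrophages, macrophage depletion with liposomes and transfer of such macrophages back into rats. The labels do not say which of these steps the brain libraries went through, nor the age or sex of the rats, the brain region or the time after exposure. They also do not say that libraries of a group came from separate animals, so the p-values measure the spread between libraries.

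Libraries held 15.11 M to 20.34 M counts. Clcf1, the target of the knock-down, went with the labels: NC libraries held 1 to 7 counts, CO libraries 80 to 118 and CLCF1 libraries 0 to 3. Its log2 difference was 5.19 for CO against NC (adjusted p = 7.46e-06) and -6.67 for CLCF1 against CO (adjusted p = 9.00e-07), and 4.58 and -6.05 with libraries 1 and 2 alone. Summed neuron markers reached 4064 to 5871 CPM, astrocyte markers 3777 to 7103 CPM and oligodendrocyte markers 7869 to 21082 CPM, which goes with the label brain. Libraries 3 to 6 of each group stood apart from libraries 1 and 2. In 42660 cases a gene had no count in libraries 1 and 2 of a group, and 0 of these cases had a count in the group's libraries 3 to 6. Of such genes, 2.90% to 8.92% had a count in library 1 or 2 of another group. The totals of all 12 libraries numbered 3 to 6 lay between those of libraries 1 and 2 of their group. These counts leave it in doubt whether libraries 3 to 6 are independent of libraries 1 and 2. Every SD and p-value at n = 6, and every fit with 1 library left out, takes them as independent. The differences of the genes named below are therefore also given with libraries 1 and 2 alone.

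Few of the 33 tested genes changed, and their share was close to that among all genes. In CO against NC, 2 of 33 rose (6.06%, against 6.32% of the 16581 genes tested) and 2 fell (6.06%, against 6.4%). In CLCF1 against CO, 2 rose (6.06%, against 8.63%) and 3 fell (9.09%, against 8.34%). In CLCF1 against NC, 1 rose (3.03%, against 4.43%) and 3 fell (9.09%, against 4.84%). A gene was called changed at an adjusted p under 0.05 (edgeR, quasi-likelihood F test, Benjamini-Hochberg over all genes tested). The median log2 difference of the 33 genes was -0.032 in CO against NC, -0.0082 in CLCF1 against CO and 0.056 in CLCF1 against NC, and that of all genes tested was 0.0066, 0.0018 and 0.011. In all, 9 of the 33 passed in at least 1 comparison and 24 in none. CO against NC and CLCF1 against CO share the CO libraries, so their values for 1 gene are not independent. Because the tissue was bulk brain, fewer cells of a type and less RNA per cell cannot be told apart.

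**Figure D1:**
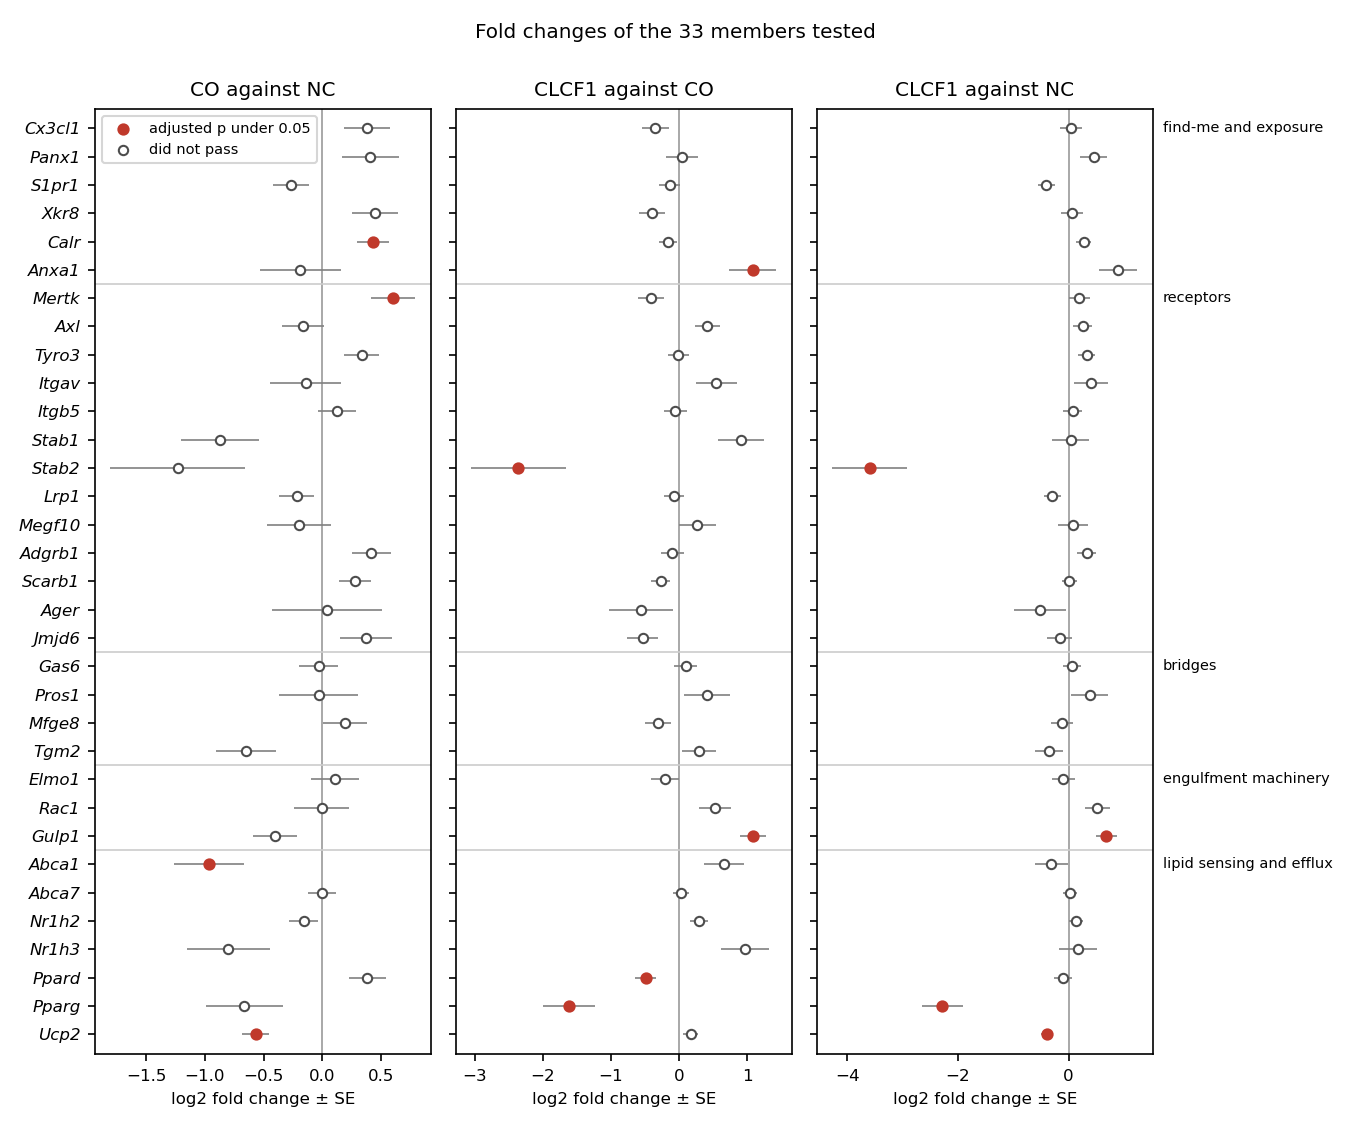
Log2 fold changes with standard errors (x axis, scaled for each panel) of the 33 genes tested (y axis, grouped by role) in the 3 comparisons. Filled points passed an adjusted p of 0.05: 4 genes in CO against NC, 5 in CLCF1 against CO and 4 in CLCF1 against NC.

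Per kilobase of gene length, levels over the 18 libraries spanned from no count to 268 CPM per kb. Calr, which encodes the eat-me protein calreticulin, was the highest at 268 CPM per kb, ahead of the GTPase gene Rac1 at 157 and the chemokine gene Cx3cl1 at 128. The bridging protein gene Mfge8 stood at 89.1 CPM per kb. Of the 3 TAM receptor tyrosine kinases, Tyro3 was the highest at 72.8 CPM per kb, above Axl at 10.7 and Mertk at 7.58, and their ligand Gas6 at 38.8 was above Pros1 at 6.26. The phosphatidylserine receptor gene Adgrb1 stood at 53.5 CPM per kb and Lrp1, the receptor that binds calreticulin, at 22.6. At the lower end were Pparg at 0.182, Stab2 at 0.102, Itgb3 at 0.102 and Cd36 at 0.0437 CPM per kb. Timd4, the TIM-4 receptor gene of tissue macrophages, had 1 count, in NC library 1. Havcr1, which encodes TIM-1, had no count in any library. If the 18 libraries are independent, this allows a level of up to 0.00954 CPM (3 counts over the 18 libraries, counting error only). The rows for Adgrb1 and Itgb5 are listed in the table as processed transcripts rather than protein-coding genes.

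**Figure D2:**
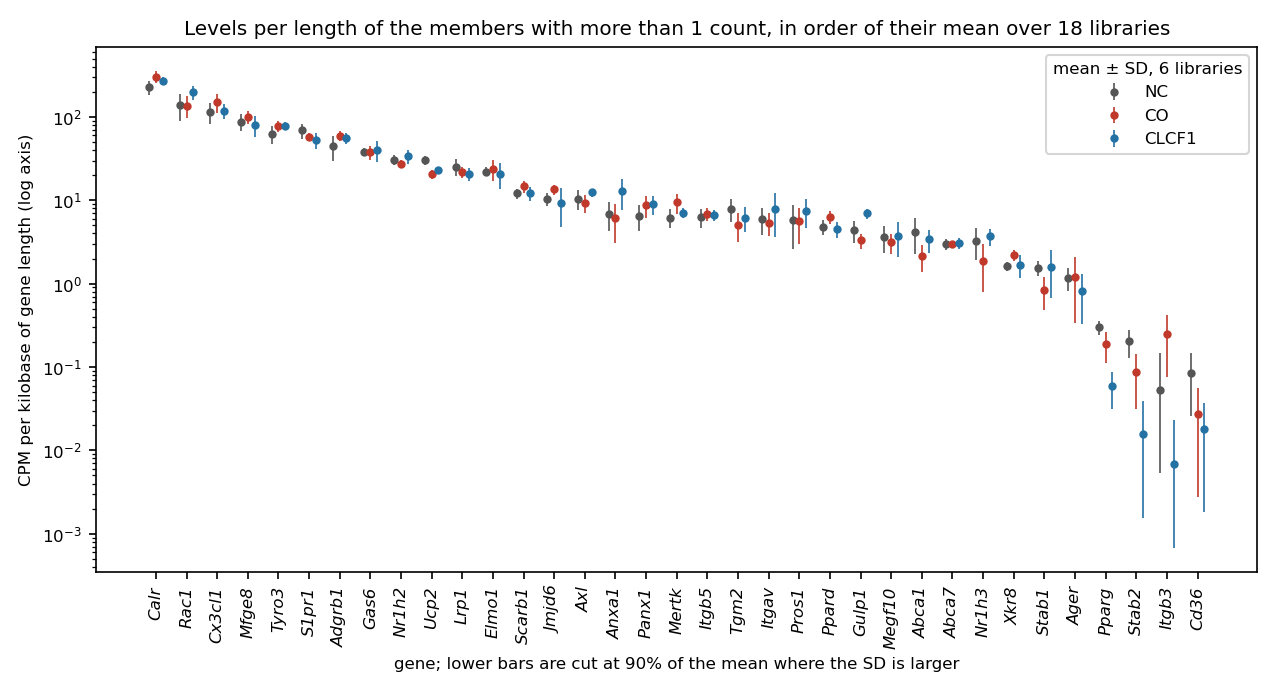
Mean and SD of 6 libraries per group (y axis, CPM per kilobase, log scale) of the 35 genes with more than 1 count (x axis), in order of their mean over 18 libraries; lower bars are shortened where the SD exceeds the mean. Calr is the highest at 268 and Cd36 the lowest at 0.0437 CPM per kb, and the CLCF1 points of Pparg and Stab2 lie below those of the other groups.

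Of the 9 genes that passed, 8 had a promoter in the RefSeq table (build GRCr8). The 250 bases before the start are shown for Calr and Mertk, which both rose in CO against NC, for Abca1 and Ucp2, which both fell there, and for Gulp1, which rose in the knock-down libraries. The windows are Calr (chr19:40213117-40213366, plus strand), Mertk (chr3:136392324-136392573, plus strand), Abca1 (chr5:72596474-72596723, minus strand), Ucp2 (chr1:164251123-164251372, plus strand) and Gulp1 (chr9:54114653-54114902, plus strand). Capitals mark matches, on either strand, to the GC box GGGCGG, the CCAAT box CCAAT, the ER stress element, the hypoxia response core (ACGTG or GCGTG), AP-1 (TGANTCA) and NF-κB.
Calr: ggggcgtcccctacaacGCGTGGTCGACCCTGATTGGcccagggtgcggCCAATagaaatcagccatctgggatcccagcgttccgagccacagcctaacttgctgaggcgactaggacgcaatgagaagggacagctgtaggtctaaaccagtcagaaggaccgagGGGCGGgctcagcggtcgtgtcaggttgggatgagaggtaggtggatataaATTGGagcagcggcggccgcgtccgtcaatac
Mertk: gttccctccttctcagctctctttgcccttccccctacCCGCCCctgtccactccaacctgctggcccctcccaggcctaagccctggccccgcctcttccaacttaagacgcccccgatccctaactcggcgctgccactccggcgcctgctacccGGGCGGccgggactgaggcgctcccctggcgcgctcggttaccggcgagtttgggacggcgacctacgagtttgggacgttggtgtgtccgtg
Abca1: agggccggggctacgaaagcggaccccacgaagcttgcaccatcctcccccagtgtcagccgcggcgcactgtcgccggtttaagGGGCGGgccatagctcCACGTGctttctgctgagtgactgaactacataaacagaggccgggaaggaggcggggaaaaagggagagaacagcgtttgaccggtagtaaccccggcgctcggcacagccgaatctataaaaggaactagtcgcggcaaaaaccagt
Ucp2: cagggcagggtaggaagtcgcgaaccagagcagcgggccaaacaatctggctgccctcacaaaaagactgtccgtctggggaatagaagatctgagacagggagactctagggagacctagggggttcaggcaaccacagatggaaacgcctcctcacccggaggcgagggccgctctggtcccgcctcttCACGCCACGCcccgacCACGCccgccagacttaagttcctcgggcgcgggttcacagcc
Gulp1: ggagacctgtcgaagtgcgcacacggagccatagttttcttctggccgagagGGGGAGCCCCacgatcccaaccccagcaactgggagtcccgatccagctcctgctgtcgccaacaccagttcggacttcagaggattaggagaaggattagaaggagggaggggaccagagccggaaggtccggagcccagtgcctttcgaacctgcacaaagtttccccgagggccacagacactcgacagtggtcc
The Calr promoter held an ER stress element, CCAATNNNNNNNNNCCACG, starting 232 bases before the start. It overlaps a CCAAT box and a hypoxia core, and 0.0657% of the 33469 promoters of the table held this element (22). The Ucp2 promoter held 3 hypoxia cores and the Abca1 promoter held 2, on opposite strands of the same letters, a core found in 36.7% of promoters. The Gulp1 promoter held an NF-κB match 198 bases before the start, as did 3.54% of promoters. The Mertk promoter held 2 GC boxes, a motif in 30.5% of promoters. Of the passing genes not shown, Anxa1 and Stab2 held no match to the motifs marked here. The Pparg promoters held GC boxes, a CCAAT box and an AP-1 match. Of the 31 listed genes with a promoter in the table, 17 held a GC box, 9 a hypoxia core, 6 a CCAAT box, 2 an NF-κB match and 2 an AP-1 match. AP-1 was found in 6.34% of all promoters and the CCAAT box in 34.0%. A match describes letters only.

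Among find-me and exposure genes, Calr was higher after carbon monoxide and Anxa1 was higher in the knock-down libraries. Calr (ENSRNOG00000003029, chromosome 19, 25956771 to 25961666 in the table's coordinates, whose build is not stated) encodes a chaperone of the endoplasmic reticulum that serves as an eat-me signal on the surface of dying cells. Its level ran from 315 through a median of 407 to 561 CPM in NC, from 404 through 584 to 670 CPM in CO and from 429 through 511 to 562 CPM in CLCF1. The NC and CO ranges overlap between 404 and 561 CPM. Calr rose in CO against NC by 0.43 ± 0.13 on the log2 scale (SE; 1.35-fold, adjusted p = 0.0410), and by 0.28 with libraries 1 and 2 alone. The call was lost without any of NC libraries 1, 3, 4 and 6 or CO libraries 1, 3, 4 and 6 (adjusted p 0.0515 to 0.0878). CLCF1 against CO gave -0.16 for Calr (adjusted p = 0.443) and CLCF1 against NC gave 0.27 (adjusted p = 0.213).

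Anxa1 (ENSRNOG00000017469, chromosome 1, 237893966 to 237910012) encodes annexin A1, a phospholipid-binding protein that apoptotic cells release and expose and that promotes their clearance. It ran from 4.67 through 9.53 to 14.8 CPM in NC, from 3.30 through 8.30 to 14.5 CPM in CO and from 11.2 through 15.2 to 29.4 CPM in CLCF1. The 2 highest values, 25.7 CPM in library 2 and 29.4 CPM, were both in CLCF1. Anxa1 rose in CLCF1 against CO by 1.09 ± 0.35 (2.12-fold, adjusted p = 0.0365; 0.80 with libraries 1 and 2). The call was lost without CO library 3, 4 or 6 or CLCF1 library 2 or 3 (adjusted p 0.0685 to 0.0898). Markers of other cell types also differed between CO and CLCF1. Summed choroid plexus markers ran from 0.882 to 42.3 CPM in CO and from 65.6 to 5963 CPM in CLCF1, and 5 of 6 rose. The highest choroid plexus sum of CLCF1 was in library 1, where Anxa1 stood at 13.1 CPM, and the lowest in library 2, where Anxa1 stood at 25.7 CPM. Summed neutrophil markers ran from 1.57 to 10.7 CPM in CO and from 5.90 to 9.59 CPM in CLCF1, where 1 of the 2 tested rose and 1 of the 6 found was at 0 in every library. Of the fibroblast and meninges markers 2 of 8 rose (180 to 814 CPM summed in CO, 510 to 847 CPM in CLCF1), and of the ependyma markers 2 of 4. The part of these cell types in the rise of Anxa1 was not tested.

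The other 4 find-me and exposure genes passed in no comparison. Xkr8, the caspase-activated scramblase that exposes phosphatidylserine, was higher in all CO than in all NC libraries, at 5.86 ± 0.837 against 4.29 ± 0.551 CPM (log2 difference 0.45, adjusted p = 0.128; 0.37 with libraries 1 and 2). S1pr1, the receptor for sphingosine 1-phosphate, was at 178 ± 36.6 CPM in NC and 135 ± 29.7 CPM in CLCF1 (-0.40, adjusted p = 0.108; -0.29 with libraries 1 and 2, and -0.52 and adjusted p = 0.0344 without NC library 6). Cx3cl1, the membrane-bound chemokine fractalkine of neurons, was at 361 ± 105 CPM in NC, 471 ± 118 in CO and 371 ± 76.5 in CLCF1 (0.39 for CO against NC, adjusted p = 0.197; 0.56 with libraries 1 and 2). Panx1, the channel through which dying cells release ATP, gave log2 differences of 0.41, 0.042 and 0.45 in the 3 comparisons, and 0.70, -0.077 and 0.62 with libraries 1 and 2.

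Of the TAM receptors, Mertk was higher in CO than in NC, while Axl and Tyro3 passed in no comparison. Mertk (ENSRNOG00000017319, chromosome 3, 121235119 to 121342444) encodes the TAM kinase of macrophages, microglia and astrocytes that binds phosphatidylserine through GAS6 and protein S. It ran from 16.8 through 31.7 to 36.4 CPM in NC, from 28.6 through 43.1 to 57.6 CPM in CO and from 27.2 through 32.7 to 40.8 CPM in CLCF1. The groups overlap, and CO library 1 at 28.6 CPM was below the NC median. Mertk rose in CO against NC by 0.60 ± 0.19 (1.52-fold, adjusted p = 0.0446), and by 0.31 with libraries 1 and 2, which overlap because CO library 1 stood at 28.6 and library 2 at 56.0 CPM. The call was lost without any of NC libraries 1 and 3 to 6 or CO libraries 2, 3, 4 and 6 (adjusted p 0.0511 to 0.0993). CLCF1 against CO gave -0.41 (95% interval -0.78 to -0.036, adjusted p = 0.144). CLCF1 against NC gave 0.19 (adjusted p = 0.572).

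Axl, the TAM kinase that is induced in inflamed phagocytes, ran from 26.0 through 46.7 to 62.6 CPM in NC, from 31.7 through 37.5 to 58.5 CPM in CO and from 45.3 through 56.2 to 59.5 CPM in CLCF1. CLCF1 against CO gave 0.42 (95% interval 0.069 to 0.77, adjusted p = 0.112), and of the 12 fits that left out 1 library only that without CO library 3 passed it (adjusted p = 0.035). Libraries 1 and 2 alone gave 0.38. Tyro3, the TAM kinase of neurons, ran from 148 through 230 to 309 CPM in NC, from 236 through 308 to 347 CPM in CO and from 248 through 288 to 349 CPM in CLCF1. CO against NC gave 0.34 (95% interval 0.042 to 0.63, adjusted p = 0.142) and CLCF1 against NC gave 0.33 (adjusted p = 0.177). CLCF1 and CO differed by -0.0082 (95% interval -0.30 to 0.28), a sign that turned in several of the alternatives. With libraries 1 and 2 Tyro3 gave 0.37 for CO against NC, 0.16 for CLCF1 against NC and -0.21 for CLCF1 against CO, where both CLCF1 libraries lay below both CO libraries. The summed neuron markers were at 4064 to 4520 CPM in NC, 5314 to 5650 CPM in CO and 4895 to 5871 CPM in CLCF1, and 3 of 8 rose in CO against NC. Astrocyte markers summed to 4583 to 5932 CPM in NC and 3777 to 7103 CPM in CO. Of 8 astrocyte markers 0 rose and 1 fell in CO against NC, and the same held for 8 tested microglia markers. Their median log2 differences were -0.35 and -0.36, beside 0.16 for the neuron markers. The part of these cell types in the levels of Tyro3, Calr and Mertk was not tested.

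Stab2 had the largest difference of the receptors that passed. Stab2 (ENSRNOG00000038948, chromosome 7, 27369853 to 27552078) encodes stabilin 2, a scavenger receptor of sinusoidal endothelium that binds phosphatidylserine, and its partner Stab1 encodes stabilin 1 of macrophages and endothelium. Stab2 was low throughout, with 172 counts over the 6 NC libraries, 63 over CO and 14 over CLCF1. It ran from 1.018 through 1.37 to 2.50 CPM in NC, from 0.191 through 0.669 to 1.40 CPM in CO and from 0 through 0.0271 to 0.438 CPM in CLCF1, where 3 of 6 libraries were at 0. Every NC library stood above every CLCF1 library, and CO overlapped both. Stab2 fell in CLCF1 against NC by 3.59 ± 0.68 on the log2 scale (adjusted p = 0.00324), and this call held whichever library was left out. It also fell in CLCF1 against CO by 2.36 ± 0.69 (adjusted p = 0.0250), a call lost without CO library 4 (adjusted p = 0.0601) or CLCF1 library 4 (adjusted p = 0.0502). With libraries 1 and 2 the 2 differences were -3.08 and -1.58. With only the 2 groups compared in the edgeR fit, Stab2 had too few counts to be tested in CLCF1 against CO. It passed there in CLCF1 against NC (adjusted p = 0.00772). CO against NC gave -1.23 (adjusted p = 0.158). Summed endothelium markers were at 144 to 218 CPM in NC, 77.9 to 176 CPM in CO and 131 to 202 CPM in CLCF1. Of 5 tested markers 0 passed in CLCF1 against NC (median log2 difference -0.30). In CLCF1 against CO 1 of 5 rose (20%, against 8.63% of all genes, median 0.073). In CO against NC 1 of 5 fell (20%, against 6.4% of all genes, median -0.37). The part of endothelium in the result was not tested. Of this list 6 of 8 symbols were found and 1 was at 0 in every library.

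No other receptor passed in the edgeR fit of all 18 libraries, but Stab1 passed in other fits. Stab1 stood at 10.9 ± 2.15 CPM in NC, 5.96 ± 2.58 in CO and 11.2 ± 6.49 in CLCF1, with differences of -0.87 for CO against NC (adjusted p = 0.0902) and 0.91 for CLCF1 against CO (adjusted p = 0.0678). Libraries 1 and 2 alone gave -1.27 and 0.32. In CO against NC Stab1 passed with DESeq2 on all genes with a count (adjusted p = 0.0467, but 0.0516 on the genes kept by the filter), with the library number as a block (0.0342), with only these 2 groups in the fit (0.0472) and without CO library 4 (0.0489). In CLCF1 against CO it passed with DESeq2 (adjusted p = 0.0349), with the block (0.0428), without CO library 4 (0.0365) and without CLCF1 library 1 (0.0187). Adgrb1, the phosphatidylserine receptor BAI1 of neurons and astrocytes that acts through ELMO1, stood at 253 ± 84.9 CPM in NC, 339 ± 45.8 in CO and 317 ± 50.6 in CLCF1 (0.42 for CO against NC, adjusted p = 0.103; 0.38 with libraries 1 and 2). Without NC library 3, Adgrb1 passed in CO against NC (0.61, adjusted p = 0.00887) and in CLCF1 against NC (0.50, adjusted p = 0.0268). Jmjd6, once cloned as a phosphatidylserine receptor and now known as a nuclear hydroxylase, stood at 17.7 ± 3.06, 23.0 ± 3.15 and 15.9 ± 7.66 CPM in the same order (-0.53 for CLCF1 against CO, adjusted p = 0.108; -0.70 with libraries 1 and 2, and -0.82 and adjusted p = 0.00611 without CLCF1 library 6). The remaining tested receptors, Itgav, Itgb5, Lrp1, Megf10, Scarb1 and Ager, passed in no comparison in any of these fits, and their differences with libraries 1 and 2 lay between -0.29 and 0.49.

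The other 4 receptors were below the filter on low counts. Without that filter edgeR called Itgb3 in CLCF1 against CO (-4.60, adjusted p = 0.00676) and Cd36 in CLCF1 against NC (-2.18, adjusted p = 0.0380), and Timd4 in no comparison. These fitted differences rest on few counts and depend on the prior count of the fit. Itgb3, the β3 chain of the vitronectin receptor that binds MFGE8, had 13 counts in NC, 57 in CO and 2 in CLCF1. Scaled by library size, CO held 4.80 times the NC level (95% exact binomial interval 2.597 to 9.56, counting error only) and 32.7 times the CLCF1 level (8.64 to 276). CO libraries differed widely, from 0.0645 CPM in library 2 to 1.08 CPM in library 1, and 5 of 6 CLCF1 and 4 of 6 NC libraries were at 0. Cd36, the scavenger receptor for oxidised lipids, had 78, 23 and 18 counts, and NC held 3.10 times the CO level (1.92 to 5.17) and 4.54 times the CLCF1 level (2.69 to 8.05). NC ranged from 0.185 CPM in library 2 to 1.53 CPM, overlapping CO at 0.0598 to 0.693 CPM and CLCF1 at 0 to 0.484 CPM. These intervals hold no spread between libraries, and pooling the 6 libraries takes libraries 3 to 6 as independent. In libraries 1 and 2 Itgb3 had 3 and 0 counts in NC, 18 and 1 in CO and 0 and 2 in CLCF1. Cd36 had 19 and 4 in NC, 1 and 5 in CO and 2 and 4 in CLCF1.

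The 4 bridging genes gave 0 calls in the 3 comparisons with edgeR and 0 with DESeq2. Of all 16581 genes edgeR called 2110 in CO against NC, 2814 in CLCF1 against CO and 1536 in CLCF1 against NC. At an unadjusted p under 0.05 edgeR held 1 of 4 in CO against NC and 0 in the others. In the same order it held 4904, 5342 and 4171 of all genes. At these shares 0 calls among 4 genes do not show that the bridges were unchanged. Gas6, the vitamin K-dependent ligand of all TAM receptors, ran from 107 through 132 to 149 CPM in NC, from 84.3 through 129 to 153 CPM in CO and from 94.4 through 124 to 207 CPM in CLCF1. Its differences were -0.032 (95% interval -0.35 to 0.29) for CO against NC, 0.098 (-0.23 to 0.42) for CLCF1 against CO and 0.066 for CLCF1 against NC, with signs that turned in some alternatives. Libraries 1 and 2 alone gave 0.037, 0.22 and 0.26. The highest value, 207 CPM, was CLCF1 library 1. Pros1, which encodes protein S, the other TAM ligand, ran from 10.5 through 16.5 to 37.9 CPM in NC, from 8.503 through 18.4 to 30.6 CPM in CO and from 16.6 through 20.8 to 41.8 CPM in CLCF1. Its difference was -0.032 (95% interval -0.69 to 0.63) in CO against NC and 0.41 (-0.25 to 1.07, adjusted p = 0.428) in CLCF1 against CO. Libraries 1 and 2 alone gave -0.51 and 0.77.

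Mfge8, which links phosphatidylserine to αv integrins, stood at 192 ± 43.6 CPM in NC, 219 ± 40.1 in CO and 176 ± 49.96 in CLCF1, and its smallest adjusted p was 0.269, in CLCF1 against CO (-0.32; -0.37 with libraries 1 and 2). Tgm2, transglutaminase 2, which assists the integrin and MFGE8, stood at 27.9 ± 8.58 CPM in NC and 17.7 ± 6.67 CPM in CO. That difference was -0.65 (adjusted p = 0.0962), but -0.049 with libraries 1 and 2 alone, where NC stood at 21.8 and 22.7 and CO at 15.9 and 27.6 CPM. Without CO library 2 it was -0.82 and passed (adjusted p = 0.0422).

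In the engulfment machinery the change was in Gulp1. Gulp1 (ENSRNOG00000003242, chromosome 9, 51263622 to 51538072) encodes the adaptor that binds the cytoplasmic tails of LRP1, MEGF10 and stabilins and passes their signal on to engulfment. It ran from 7.54 through 13.3 to 19.1 CPM in NC, from 6.61 through 10.9 to 11.4 CPM in CO and from 17.0 through 21.5 to 24.9 CPM in CLCF1. Every CLCF1 library stood above every CO library, and NC overlapped both. Gulp1 rose in CLCF1 against CO by 1.08 ± 0.19 (2.11-fold, adjusted p = 0.00150; 0.78 with libraries 1 and 2), and the call held whichever library was left out. It also rose in CLCF1 against NC by 0.68 ± 0.19 (1.60-fold, adjusted p = 0.0315; 0.54 with libraries 1 and 2). That second call was lost without NC library 2, 3, 5 or 6 or CLCF1 library 2, 4, 5 or 6 (adjusted p 0.05003 to 0.0737). CO against NC gave -0.40 (adjusted p = 0.166). The choroid plexus, neutrophil, fibroblast and meninges, and ependyma markers given beside Anxa1 moved in the same comparison, and their part in the rise of Gulp1 was not tested.

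Rac1, the GTPase that remodels actin under the forming phagosome, stood at 151 ± 53.2 CPM in NC, 150.2 ± 45.02 in CO and 216 ± 41.6 in CLCF1. Its differences were -0.0059 in CO against NC, 0.53 in CLCF1 against CO (adjusted p = 0.125) and 0.52 in CLCF1 against NC (adjusted p = 0.167), and 0.027, 0.31 and 0.33 with libraries 1 and 2. Elmo1, which activates RAC1 together with DOCK1, stood at 51.2 ± 6.56, 55.4 ± 15.6 and 48.0 ± 16.2 CPM, with a smallest adjusted p of 0.529, in CLCF1 against CO (-0.21; -0.15 with libraries 1 and 2).

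**Figure D3:**
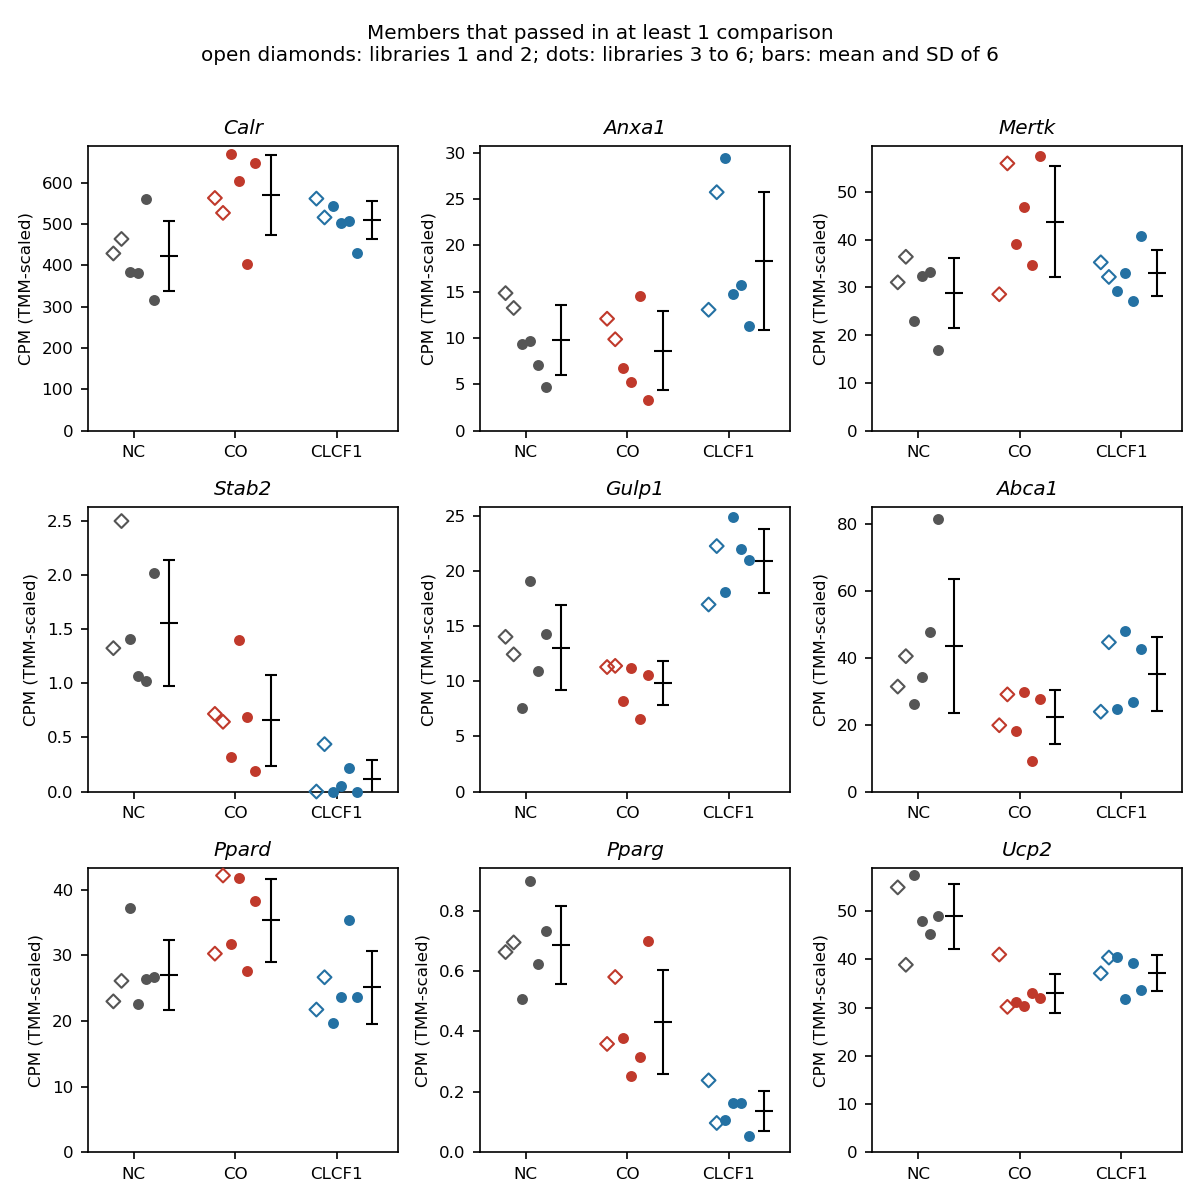
Level in every library (y axes, CPM from 0) of the 9 genes that passed in at least 1 comparison, by group (x axes); diamonds are libraries 1 and 2, dots libraries 3 to 6, and bars the mean and SD of 6. Gulp1 in CLCF1 (17.0 to 24.9 CPM) lies above CO (6.61 to 11.4 CPM), and Pparg in CLCF1 (0.0538 to 0.238 CPM) lies below both other groups.

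Of the 7 lipid sensing and efflux genes, 2 fell in each comparison (28.6%, against 6.4%, 8.34% and 4.84% of all genes) and 0 rose. The falls in CO against NC and in CLCF1 against NC include Ucp2, a mitochondrial gene placed in this group that is not itself a lipid sensor or exporter. After carbon monoxide the cholesterol transporter gene Abca1 and the mitochondrial carrier gene Ucp2 were lower, and in the knock-down libraries the nuclear receptor genes Pparg and Ppard were lower than in CO. Abca1 (ENSRNOG00000018126, chromosome 5, 69857771 to 69983015) encodes the transporter that loads cell cholesterol onto apolipoproteins after uptake of dying cells. It ran from 26.0 through 37.2 to 81.3 CPM in NC, from 9.20 through 23.7 to 29.7 CPM in CO and from 23.8 through 34.6 to 47.9 CPM in CLCF1. NC and CO overlap between 26.0 and 29.7 CPM. Abca1 fell in CO against NC by 0.97 ± 0.30 on the log2 scale (0.511 of the NC level, adjusted p = 0.0394), and by 0.57 with libraries 1 and 2. The call was lost without NC library 2, 5 or 6 or CO library 1, 3 or 5 (adjusted p 0.0522 to 0.103). CLCF1 against CO gave 0.66 (95% interval 0.077 to 1.24, adjusted p = 0.132).

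Ucp2 (ENSRNOG00000017854, chromosome 1, 165506361 to 165512744) encodes an uncoupling protein of the inner mitochondrial membrane that sustains continued uptake of dying cells. It ran from 38.9 through 48.5 to 57.5 CPM in NC, from 30.2 through 31.6 to 41.0 CPM in CO and from 31.8 through 38.2 to 40.6 CPM in CLCF1. The NC and CO ranges overlap through CO library 1 at 41.0 CPM and NC library 2 at 38.9 CPM, and the other 5 CO libraries lie below every NC library. Ucp2 fell in CO against NC by 0.57 ± 0.11 (0.674 of the NC level, adjusted p = 0.00377; -0.41 with libraries 1 and 2), and no left-out library ended this call. It also fell in CLCF1 against NC by 0.40 ± 0.11 (0.760 of the NC level, adjusted p = 0.0315; -0.30 with libraries 1 and 2). That call was lost without NC library 1 or 3 or CLCF1 library 4 or 6 (adjusted p 0.0538 to 0.0632). CLCF1 against CO gave 0.17 (95% interval -0.047 to 0.39, adjusted p = 0.307).

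Markers of other cell types were also lower in CO. Summed fibroblast and meninges markers stood at 725 to 961 CPM in NC and 180 to 814 CPM in CO, and 4 of 8 fell. Summed mural cell markers stood at 237 to 306 CPM in NC and 90.7 to 198 CPM in CO, and 3 of 8 fell. Summed microglia markers stood at 321 to 409 CPM in NC, 285 to 358 CPM in CO and 356 to 411 CPM in CLCF1. Of 8 tested microglia markers 1 fell in CO against NC and 2 rose in CLCF1 against CO, and 1 of the 9 found was at 0 in every library. The border macrophage sums overlapped, at 26.8 to 43.2, 18.04 to 42.3 and 25.7 to 47.4 CPM. The part of these cell types in the levels of Abca1, Ucp2 and Stab1 was not tested.

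Pparg (ENSRNOG00000008839, chromosome 4, 147274107 to 147399380) encodes PPARγ, a lipid-activated receptor that raises efferocytosis genes in macrophages. Its level was low, with 74 counts over the NC libraries, 41 over CO and 15 over CLCF1. It ran from 0.506 through 0.679 to 0.898 CPM in NC, from 0.254 through 0.369 to 0.699 CPM in CO and from 0.0538 through 0.135 to 0.238 CPM in CLCF1. Every CLCF1 library lay below every library of the other groups, which overlap each other. Pparg fell by 1.62 ± 0.38 on the log2 scale in CLCF1 against CO (adjusted p = 0.00741) and by 2.28 ± 0.36 in CLCF1 against NC (adjusted p = 0.00113). Both calls held whichever library was left out, and with libraries 1 and 2 the differences were -1.47 and -2.01. Each of those fits kept all 3 groups. With only the 2 groups compared in the fit, Pparg had too few counts to be tested in either comparison. CO against NC gave -0.66 (adjusted p = 0.181).

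Ppard (ENSRNOG00000000503, chromosome 20, 7818289 to 7885333) encodes PPARδ, a sister receptor that is activated by fatty acids. It ran from 22.6 through 26.3 to 37.2 CPM in NC, from 27.6 through 35.04 to 42.2 CPM in CO and from 19.6 through 23.7 to 35.3 CPM in CLCF1, so the groups overlap. Ppard fell in CLCF1 against CO by 0.49 ± 0.16 (0.711 of the CO level, adjusted p = 0.0387; -0.59 with libraries 1 and 2). The call was lost without CO library 2, 4 or 6 or CLCF1 library 1, 2, 3, 4 or 6 (adjusted p 0.0523 to 0.0835). CO against NC gave 0.39 (adjusted p = 0.111; 0.55 with libraries 1 and 2), and it passed without NC library 3 (adjusted p = 0.0455).

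The LXR genes did not pass in the edgeR fit of all 18 libraries, but Nr1h3 passed in other fits. Nr1h3, which encodes the macrophage receptor LXRα, stood at 5.38 ± 2.25 CPM in NC, 3.08 ± 1.79 in CO and 6.05 ± 1.43 in CLCF1. Its differences were -0.80 for CO against NC (adjusted p = 0.142) and 0.97 for CLCF1 against CO (adjusted p = 0.0674), and -0.83 and 1.05 with libraries 1 and 2. In CLCF1 against CO Nr1h3 passed with DESeq2 (adjusted p = 0.0316) and with the library number as a block (0.0415). Without CO library 3 it passed in CLCF1 against CO (adjusted p = 0.0194) and in CO against NC (adjusted p = 0.0465). Nr1h2, which encodes the widely expressed LXRβ, stood at 62.0 ± 8.81, 55.6 ± 6.48 and 68.1 ± 12.4 CPM (0.29 for CLCF1 against CO, adjusted p = 0.113; 0.15 with libraries 1 and 2). Abca7, a phospholipid transporter that promotes engulfment, was at 20.5 ± 3.11, 20.5 ± 1.17 and 20.9 ± 3.02 CPM. Its 95% interval in CO against NC ran from -0.23 to 0.23, and libraries 1 and 2 gave -0.048.

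With libraries 1 and 2 alone, 0 genes of the 33 passed. All 13 calls on the 9 genes kept their sign, and in 10 of 13 the 2 libraries of each group did not overlap. Libraries 1 and 2 are part of the fits that made these calls, so this is not an independent check. Among all 33 genes, passing or not, the sign was the same for 26, 30 and 28 in the 3 comparisons. How many of all genes did not overlap in this way was not counted. The fit of libraries 1 and 2 alone called 4, 8 and 2 of all genes in the 3 comparisons. At an unadjusted p under 0.05 it held 2, 3 and 1 of the 33, and 594, 817 and 418 of all 16820 genes tested. Of the 13 calls, 5 were kept in each of the 12 fits that left out 1 library: Ucp2 in CO against NC, Gulp1 and Pparg in CLCF1 against CO, and Pparg and Stab2 in CLCF1 against NC. These fits kept all 3 groups. Pparg was below the filter in both comparisons when only the 2 groups compared were fitted.

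**Figure D4:**
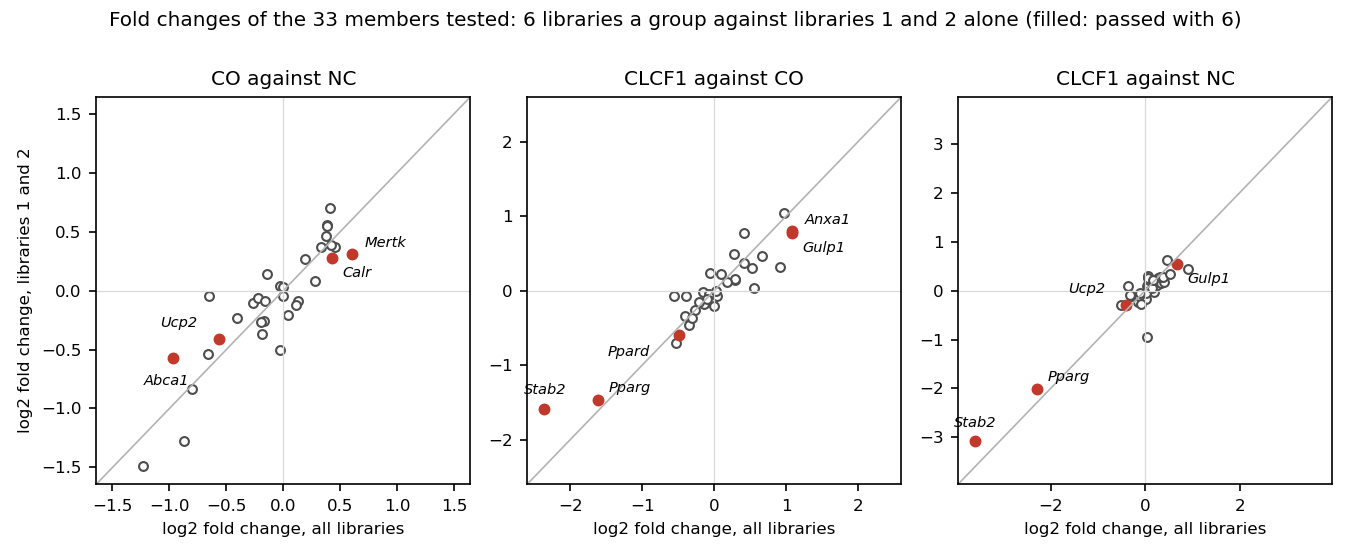
Log2 fold change of the 33 genes with libraries 1 and 2 alone (y axis) against that with 6 libraries a group (x axis); the diagonal marks equal values and filled points passed with 6. All 13 filled points lie on the same side of 0 on both axes, and Stab2 at -3.59 and -3.08 in CLCF1 against NC is the farthest from it. Libraries 1 and 2 enter both axes.

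Beyond the 38, 160 other genes of the pathway were listed, of which 157 were found and 142 tested. In CO against NC 17 of 142 rose and 9 fell (11.97% and 6.34%, against 6.32% and 6.4% of all genes). In CLCF1 against CO 16 rose and 14 fell (11.3% and 9.86%, against 8.63% and 8.34%), and in CLCF1 against NC 7 rose and 8 fell (4.93% and 5.63%, against 4.43% and 4.84%). In libraries 1 and 2 alone 0 of the 142 passed in each comparison, and their median log2 differences were 0.031, 0.015 and 0.076, beside 0.038, 0.021 and 0.079 with 6 libraries.

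Among the other bridges and opsonins, 2 of 11 rose and 1 fell in CO against NC (18.2% and 9.09%, against 6.32% and 6.4% of all genes). Thbs1, which encodes the bridging protein thrombospondin 1, rose from 5.16 ± 1.55 CPM in NC to 13.6 ± 2.38 CPM in CO (log2 difference 1.39 ± 0.33, adjusted p = 0.0117; 1.51 with libraries 1 and 2). C1qa, a chain of the complement opsonin C1q, rose from 53.6 ± 10.3 to 81.3 ± 15.0 CPM (0.60 ± 0.16, adjusted p = 0.0175; 0.22 with libraries 1 and 2). Cyr61, a matrix protein that can bridge dying cells to integrins, fell from 22.1 ± 7.98 to 3.79 ± 2.50 CPM (-2.55 ± 0.46, adjusted p = 0.00251; -1.83 with libraries 1 and 2). In CLCF1, Cyr61 was at 1.76 ± 1.096 CPM, below every NC library.

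Of the other receptors 2 of 19 rose and 2 fell in CLCF1 against CO (10.5% each, against 8.63% and 8.34% of all genes). Olr1, the scavenger receptor LOX-1, rose in CO against NC, from 0.898 ± 1.01 to 5.80 ± 2.11 CPM (2.69 ± 0.58, adjusted p = 0.00680). It fell in CLCF1 against CO, to 0.60 ± 0.330 CPM (-3.26 ± 0.60, adjusted p = 0.00203), and with libraries 1 and 2 these differences were 2.74 and -2.65. Fcgr2b, the inhibitory Fc receptor, fell in CO against NC (-1.19 ± 0.30, adjusted p = 0.0158) and rose in CLCF1 against CO (1.14 ± 0.30, adjusted p = 0.0148). Itgax, the integrin chain CD11c, rose in CLCF1 against CO (1.38 ± 0.31, adjusted p = 0.00536) from 0.451 ± 0.192 to 1.19 ± 0.169 CPM. Scarf1, an endothelial and phagocyte receptor for C1q on dying cells, fell in CLCF1 against CO (-1.27 ± 0.33, adjusted p = 0.0146) and against NC (-2.24 ± 0.34, adjusted p = 0.000756). Libraries 1 and 2 alone gave -0.79 and 1.02 for Fcgr2b, 1.08 for Itgax, and -1.02 and -1.56 for Scarf1.

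In phagosome maturation, 4 of 24 genes rose and 0 fell in CLCF1 against CO (16.7% higher, against 8.63% of all genes), and 0 of 24 passed in CLCF1 against NC, where 4.43% of all genes rose. These 4 were Gpnmb, a phagosome glycoprotein, by 1.79 ± 0.34 (adjusted p = 0.00216), Cybb, the catalytic chain of the phagocyte oxidase, by 1.36 ± 0.33 (adjusted p = 0.00989), the early endosome GTPase gene Rab5a by 0.55 ± 0.17 (adjusted p = 0.0289) and the lysosomal membrane gene Lamp2 by 0.45 ± 0.13 (adjusted p = 0.0242). With libraries 1 and 2 the differences were 0.79, 1.55, 0.24 and 0.33. Of 21 other engulfment genes, 1 rose and 1 fell in CLCF1 against CO (4.76% each, against 8.63% and 8.34% of all genes), and 3 rose and 1 fell in CO against NC (14.3% and 4.76%, against 6.32% and 6.4%). Bcar1, the adaptor that couples integrins to CRK and DOCK1, fell in CLCF1 against CO from 84.6 ± 9.37 to 51.9 ± 5.81 CPM (-0.70 ± 0.12, adjusted p = 0.00137). Rac2, the RAC of blood-derived cells, rose by 0.74 ± 0.23 (adjusted p = 0.0329). Syk, a kinase of phagocytic receptors, rose in CO against NC by 0.76 ± 0.18 (adjusted p = 0.00977). In libraries 1 and 2 these 3 differences were -0.66, 0.75 and 0.59.

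Of 15 other lipid genes, 0 rose and 1 fell in CO against NC (6.67%, against 6.4% of all genes), and 2 rose and 1 fell in CLCF1 against CO (13.3% and 6.67%, against 8.63% and 8.34%). Mylip, an LXR target whose product degrades the LDL receptor, fell in CO against NC from 23.3 ± 6.31 to 11.3 ± 2.17 CPM (-1.04 ± 0.17, adjusted p = 0.00118). In CLCF1 it was at 22.1 ± 2.13 CPM, above every CO library (0.96 ± 0.17, adjusted p = 0.00135), and with libraries 1 and 2 the differences were -0.79 and 0.84. Ppara, the PPAR of fatty acid oxidation, rose in CLCF1 against CO by 1.83 ± 0.40 (adjusted p = 0.00485), from 0.575 ± 0.258 to 2.06 ± 0.985 CPM, while Pparg and Ppard fell. In the metabolism list, 3 of 11 rose and 2 fell in CO against NC (27.3% and 18.2%, against 6.32% and 6.4% of all genes), and 2 rose and 2 fell in CLCF1 against CO (18.2% each, against 8.63% and 8.34%). Slc2a1, the glucose transporter GLUT1, rose in CO against NC by 0.83 ± 0.17 (adjusted p = 0.00497) and fell in CLCF1 against CO by 1.12 ± 0.17 (adjusted p = 0.000589). Slc7a11, the cystine and glutamate exchanger, fell in CO against NC by 1.34 ± 0.40 (adjusted p = 0.0338) and rose in CLCF1 against CO by 1.47 ± 0.40 (adjusted p = 0.0176). In libraries 1 and 2 the differences were 0.95 for Ppara, 0.76 and -1.08 for Slc2a1, and -0.81 and 0.97 for Slc7a11.

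Of the shedding and outputs list, 1 of 14 rose and 6 fell in CLCF1 against CO (7.14% and 42.9%, against 8.63% and 8.34% of all genes), and 5 rose in CO against NC (35.7%, against 6.32%). Of the 14, 0 passed in these comparisons with libraries 1 and 2 alone, and the median difference in CLCF1 against CO was 0.048, beside -0.084 with 6 libraries. Socs3, the feedback inhibitor of interleukin-6-type cytokines, rose from 2.37 ± 1.56 CPM in NC to 5.86 ± 0.967 CPM in CO (1.30 ± 0.40, adjusted p = 0.0387). It fell to 0.729 ± 0.471 CPM in CLCF1 (-2.99 ± 0.43 against CO, adjusted p = 0.000456). Ptges, which makes prostaglandin E2, rose by 1.58 ± 0.27 in CO against NC (adjusted p = 0.00153) and fell by 1.36 ± 0.27 in CLCF1 against CO (adjusted p = 0.00272). Alox15, a lipoxygenase of resolving macrophages, rose in CLCF1 against CO by 1.59 ± 0.33 (adjusted p = 0.00353). In libraries 1 and 2 the CLCF1 against CO differences of Socs3, Ptges and Alox15 were -2.39, -1.06 and 1.14. Those of Socs3 and Ptges in CO against NC were 1.77 and 1.11.

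Of the find-me and exposure list, 4 of 19 other genes rose and 2 fell in CLCF1 against CO (21.1% and 10.5%, against 8.63% and 8.34% of all genes). S1pr3, a receptor for sphingosine 1-phosphate, rose by 2.58 ± 0.61 (adjusted p = 0.00821), with a mean of 28.7 CPM and an SD of 26.3 CPM in CLCF1, the group in which the choroid plexus markers ran from 65.6 to 5963 CPM. Their part in it was not tested. Atp11a, a flippase that keeps phosphatidylserine on the inner face of the membrane, fell by 0.85 ± 0.22 (adjusted p = 0.0127). Among the do-not-eat-me genes, Cd200r1, the receptor for CD200, rose in CO against NC by 1.68 ± 0.46 (adjusted p = 0.0227), and Siglec5, an inhibitory sialic acid receptor, fell by 0.69 ± 0.19 (adjusted p = 0.0240). Libraries 1 and 2 alone gave 1.87 for S1pr3, -0.58 for Atp11a, 1.13 for Cd200r1 and -0.75 for Siglec5.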

How the data were processed

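Per the labels' protocols, total RNA of brain samples was made into libraries with a SMARTER mRNA kit, and 18 libraries were grouped by their titles and genotype and treatment labels. The authors deposited raw read counts per gene, as whole numbers in 1 table, with no normalization. Its gene IDs are of rat, while only the mouse builds GRCm38 and mm10 are named, per the submitters' processing notes. The aligner, counter, strand setting and build of the table are not stated in the sources used, so coordinates are printed as deposited, and overlapping and antisense genes may share reads. The table's 2328 unnamed loci took 1.21% to 1.62% of the counts and stayed in library sizes and tests.

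Counts were scaled by TMM and tested with edgeR 4.0.16 in R 4.3.3. The filter filterByExpr kept 16581 of 34873 genes, and 1 robust quasi-likelihood fit covered the 18 libraries. The fit was also run on simulated counts, drawn independently for each library. That run cannot show whether libraries 3 to 6 are independent of libraries 1 and 2. Benjamini-Hochberg adjustment ran over all genes tested, with a threshold of 0.05. The common dispersion was 0.0972. Standard errors were derived from the F statistic. CPM values are TMM-scaled, and levels between genes were divided by the table's gene length. Alternatives were DESeq2 1.42.0 with and without the filter, other scalings and filters, the library number as a block, libraries 1 and 2 or 3 to 6 alone, 2 groups alone, and leaving out each library.

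The genes, lists and tests were chosen with earlier results of these data known. Every gene of the list is accounted for. Genes that passed in a comparison and Mertk, Axl, Tyro3, Gas6 and Pros1 are given in full, and the others by role with up to 3 named by smallest p. Of each further pathway list up to 4 passing genes with the smallest p were eligible, and some of these are not reported here. Libraries of a group differed beyond counting noise (chi-square per degree of freedom 42.2 to 76.7), so no 2 were identical. This does not show that libraries 3 to 6 are independent of libraries 1 and 2. All 6 were kept as labelled, with libraries 1 and 2 alone as an alternative.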

Additional observations from a re-analysis of the deposited data

Results flagged for a closer look

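Among 104 cases of a gene in a group, 8 had a library set apart from the other 5 by a gap past the 95% critical value of Dixon's test, where chance gives about 1 in 20, or 5.2. For Itgb3, NC library 4 stood at 0.561 CPM and the next at 0.199 CPM. For Tgm2, NC library 4 stood at 44.3 CPM and the next at 30.1 CPM. NC library 3 was the highest for Adgrb1 (415.5 CPM, the next at 269.5), Pros1 (37.9 CPM, the next at 18.3) and Ppard (37.2 CPM, the next at 26.7). CO library 5 stood at 413 CPM for Lrp1 with the next at 323 CPM, and CO library 1 at 41.0 CPM for Ucp2 with the next at 33.1 CPM. For Nr1h2, CLCF1 library 4 stood at 92.0 CPM and the next at 71.0 CPM.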

How the results depend on the processing

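CO against NC called 2110 genes, CLCF1 against CO 2814 and CLCF1 against NC 1536. Without a filter these were 4291, 5645 and 4292, with DESeq2, also without that filter and on 22634 genes, 4170, 5254 and 3844, with DESeq2 on the 16581 genes kept by the filter, an alternative chosen after seeing the data, 2854, 3572 and 2334, with libraries 1 and 2 alone 4, 8 and 2, and with libraries 3 to 6 alone 918, 1436 and 736. Of the listed genes 4, 5 and 4 passed. With libraries 1 and 2 alone 0, 0 and 0 passed, and with libraries 3 to 6 alone 1, 2 and 2. Library size scaling left 2 in CO against NC. A fit of only the 2 groups left 2 of 33 in CO against NC, 1 of 31 in CLCF1 against CO and 3 of 32 in CLCF1 against NC. In that fit Pparg in both CLCF1 comparisons and Stab2 in CLCF1 against CO were below the filter. In CLCF1 against CO DESeq2 called 8 of 36 without the filter, 7 of them among the 33, and 7 of 33 with it. Leaving out 1 library gave 1 to 4, 3 to 6 and 2 to 4. The replicate block gave 3, 6 and 4 listed genes and 1944, 2787 and 1477 genes in all. Library numbers share no stated source, and deviations of same-numbered libraries correlated from -0.028 to 0.149 over 18 pairs, 1 of them above 0.1. With the block Mertk (adjusted p = 0.0728), Calr (0.0712) and Ppard (0.0622) no longer passed, while Stab1 in CO against NC (0.0342) and Stab1 (0.0428) and Nr1h3 (0.0415) in CLCF1 against CO did. Clcf1 kept its direction with libraries 1 and 2 alone, at 4.58 in CO against NC and -6.05 in CLCF1 against CO, but did not pass. Among the genes given in full, signs turned only where the comparison did not pass. Gas6 in CO against NC was 0.037 with libraries 1 and 2 and -0.094 to 0.060 with 1 library left out, in CLCF1 against CO -0.080 to 0.18, and in CLCF1 against NC -0.049 with libraries 3 to 6 and -0.11 to 0.15. Pros1 in CO against NC was 0.15 with libraries 3 to 6 and -0.24 to 0.30 with 1 library left out. Tyro3 in CLCF1 against CO was 0.0050 with the replicate block, 0.017 with library size scaling, 0.083 with libraries 3 to 6 and -0.080 to 0.033 with 1 library left out. Mertk in CLCF1 against NC was -0.022 with libraries 1 and 2. The cause of these differences was not tested. A common dispersion of 0.0972 limits what 6 libraries a group can show for small fold changes, and Pparg, Stab2, Itgb3 and Cd36 rest on few counts.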
